A study of Homo sapiens with 4 samples.

Results

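The G2 and mitosis genes examined here are 52 genes that are used widely as markers of cells in the G2 phase and in mitosis. They were taken from a list of gene symbols that does not use measured values as a criterion, although the list was drawn up with earlier results of these data known, and every symbol was found in the table, which lists 57820 gene IDs. The 52 symbols cover 53 gene IDs, because the symbol *CKS1B* stands for the gene on chromosome 1 and also for a nearly identical processed pseudogene on chromosome 5 that the annotation names *CKS1BP3*. All 53 entries were among the 20528 genes that passed edgeR's filter on low counts.

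The RNA came from SK-N-SH, an established human neuroblastoma cell line, and was sequenced in 2 conditions with 2 libraries each. The control cells received an empty lentivirus without an insert (vector control). The other cells received a lentivirus in which the EF1a promoter drives the cDNA of the long noncoding RNA *RP5-998N21.4* (*RP5-998N21.4* OE). Both conditions share the viral backbone, the genotype field calls the control cells wild type, and it is not stated whether the 2 libraries of a condition came from separate cultures or transductions, so the p-values measure only the spread between these libraries.

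Entry into mitosis is driven by the kinase CDK1 bound to cyclin B, and it is followed by chromosome condensation, spindle assembly, chromosome segregation and cytokinesis, until the anaphase-promoting complex marks cyclin B and securin for destruction. Transcription of most genes in these steps is low in resting and G1 cells and peaks in G2 and mitosis. The promoters of many of them carry a cell cycle genes homology region (CHR), which is read by the DREAM complex in resting cells and by MYBL2 and FOXM1 complexes in G2. In proliferating cell lines these genes are used as markers of dividing cells, and the fraction of dividing SK-N-SH cells was not measured here.

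The CHR is shown first, because it is a feature of many of the members and their selection did not use it. Promoters of 44 members were found among those given by RefSeq (GRCh38.p14), 55 promoters of 300 bases in all, from 250 bases before to 50 bases after the start of transcription. *TTK*, *HMGB2*, *AURKA*, *TPX2*, *BIRC5*, *UBE2C*, *CDCA2* and *ANP32E* were not matched. The letters TTTGAA or TTCGAA were searched on both strands. Matches of these forms cannot overlap each other, and they can share 1 base with the CCAAT box, the second motif searched. A match was found in 65.5% of the members' promoters and in 16.4% of all 35116 promoters in the set. Within the last 100 bases before the start, the shares were 36.4% and 4.92%. CCAAT on either strand was present in 69.1% of the members' promoters and in 34.6% of all promoters. It was also in 66.7% of the promoters of S phase genes and in 52.2% of those of other mitotic genes. The windows below are 30 bases long and run 5′ to 3′ on the strand of the gene, with the match in capitals. They are shown for the 14 members whose match begins from 18 to 30 bases before the start, since the matches were most frequent there.
*CDCA8*, chr1:37692481-37692510, plus strand: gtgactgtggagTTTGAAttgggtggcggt
*PSRC1*, chr1:109283157-109283186, minus strand: gggcctgagagaTTCGAAaggagccccgcc
*CKS1B*, chr1:154974639-154974668, plus strand: gcgggcggcgtgTTTGAAagcgaggccaaa
*CENPA*, chr2:26786026-26786055, plus strand: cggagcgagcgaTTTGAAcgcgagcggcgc
*CDC25C*, chr5:138331817-138331846, minus strand: gctggcggaaggTTTGAAtggtcaacgcct
*HMMR*, chr5:163460592-163460621, plus strand: aatgtggggagaTTTGAAtttgaaaccggt
*ANLN*, chr7:36389830-36389859, plus strand: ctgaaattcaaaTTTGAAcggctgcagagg
*KIF11*, chr10:92593090-92593119, plus strand: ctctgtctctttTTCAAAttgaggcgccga
*MKI67*, chr10:128126435-128126464, minus strand: tcttcgttttcgTTTGAAttgggcgggcgc
*GTSE1*, chr22:46296832-46296861, plus strand: ctcggagcccttTTCAAAccgaccaatcgg
*CCNB2*, chr15:59105105-59105134, plus strand: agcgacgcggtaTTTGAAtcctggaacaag
*PLK1*, chr16:23678848-23678877, plus strand: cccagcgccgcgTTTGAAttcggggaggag
*CKS2*, chr9:89311154-89311183, plus strand: cgggctgtcggaTTCAAAtccggatcgttg
*RANGAP1*, chr22:41286199-41286228, minus strand: aaactgccggctTTCAAAatcctcctcctc
The match of *KIF11*, *GTSE1*, *CKS2* and *RANGAP1* reads TTTGAA on the opposite strand, and *PSRC1* has the TTCGAA form. The windows of *HMMR* and *ANLN* each hold a second match beside the capitals, in *ANLN* on the opposite strand.

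The match began 18 bases before the start in *CENPA*, 23 in *CDCA8*, 26 in *GTSE1*, and 29 in *MKI67*, *PLK1* and *CCNB2*, which encode a proliferation antigen, a mitotic kinase and cyclin B2. Of the 51 matches in the members' promoters, 14 began in the 10 bases from 30 to 21 before the start. The other mitotic genes described further on had a match in 38.8% of their 134 promoters, and the S phase genes had one in 11.9%. Members with and without a match had similar log2 fold changes. The median log2 fold change was -0.52 over the 33 members with a match and -0.54 over the 11 members without one.

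**Figure D1:**
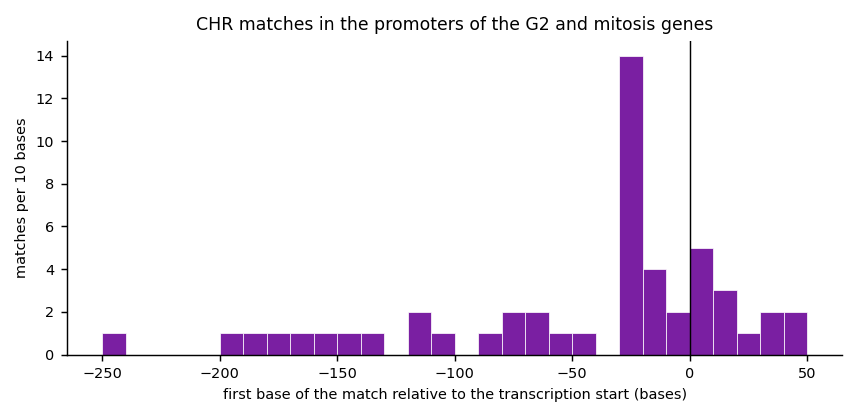
Position of CHR matches (either form, either strand) in the promoters of the G2 and mitosis genes. The x axis gives the first base of the match relative to the start of transcription in bases and the y axis the number of matches per 10 bases; 14 of the 51 matches begin from 30 to 21 bases before the start.

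Library totals ranged from 23785164 to 28307591 counts, and mitochondrial genes held from 6.01% to 6.50% of them. The overexpressed gene had 32 and 33 counts with the vector control and 2407 and 2808 counts with OE. All 8 adrenergic and all 8 mesenchymal neuroblastoma markers were above 1 CPM, the unit of edgeR's counts scaled to a common library size after TMM normalization. The summed level of the adrenergic markers was 605 and 683 CPM in the vector control libraries and 984 and 930 CPM in the OE libraries, and that of the mesenchymal markers was 2700, 2520, 3010 and 2050 CPM in the same order. *VIM* (vimentin) alone held 348, 350, 1250 and 376 CPM of the latter, and without it, a choice made after its values were seen, the mesenchymal sums were 2350, 2170, 1760 and 1680 CPM. The single markers differed in direction, with *CD44* at 613, 565, 354 and 365 CPM and *FOSL1* at 158, 164, 176 and 180 CPM. Whether these markers' differences have a part in the values of the G2 and mitosis genes was not tested. Of 13 markers of other cell types, only *KRT18* had a mean above 1 CPM, with a summed level of all 13 from 56.5 to 61.9 CPM. *EPCAM* (epithelium) had 15, 30, 12 and 8 counts, *PTPRC* (leukocytes) had 4 counts in OE 2 alone, and the markers *ALB* and *APOA1* (hepatocytes), *CDH5* (endothelium), *CD3E* (T cells), *HBB* (erythroid cells) and *KRT5* (keratinocytes) were at 0 counts in every library. In bulk RNA, fewer dividing cells and less RNA per dividing cell cannot be told apart.

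The summed level of the G2 and mitosis genes was 2822 and 2748 CPM in the vector control libraries (mean 2785 ± 52.6, SD, n = 2) and 1958 and 2066 CPM in the OE libraries (mean 2012 ± 76.4, SD, n = 2), 27.8% lower. Both OE libraries lay below both vector control libraries. With plain library totals in place of TMM sizes the sum was 24.5% lower. No test is given for the sum, because the smallest two-sided p that an exact permutation test allows at this replication is 2 in 6.

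Of the 53 entries, 47 had a negative log2 fold change and 6 a positive one. The median was -0.52, against 0.01 over all tested genes. Both OE libraries were below both vector control libraries for 37 members, against 27.6% of all tested genes, and above them for 1 member, *RANGAP1*, against 27.8% of all tested genes. In edgeR's quasi-likelihood test, 27 members were lower at an unadjusted p under 0.05 and 0 were higher, where 10.7% of all tested genes were lower and 10.1% higher. After Benjamini-Hochberg adjustment over all genes, no member passed. The study's thresholds are 0.01 for the adjusted p and 0.5 for the absolute log2 fold change, and with them edgeR called 0 members and 0.0% of all genes, and at an adjusted p under 0.05 it called 0 members and 0.594% of all genes. The smallest adjusted p of a member was 0.0615, for *MKI67*. DESeq2, which the study names, called 19 members lower and 0 higher at the same thresholds, against 4.42% and 4.35% of all tested genes. Errors given after a log2 fold change are standard errors of edgeR's fit, and every adjusted p of a member below is from this test.

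**Figure D2:**
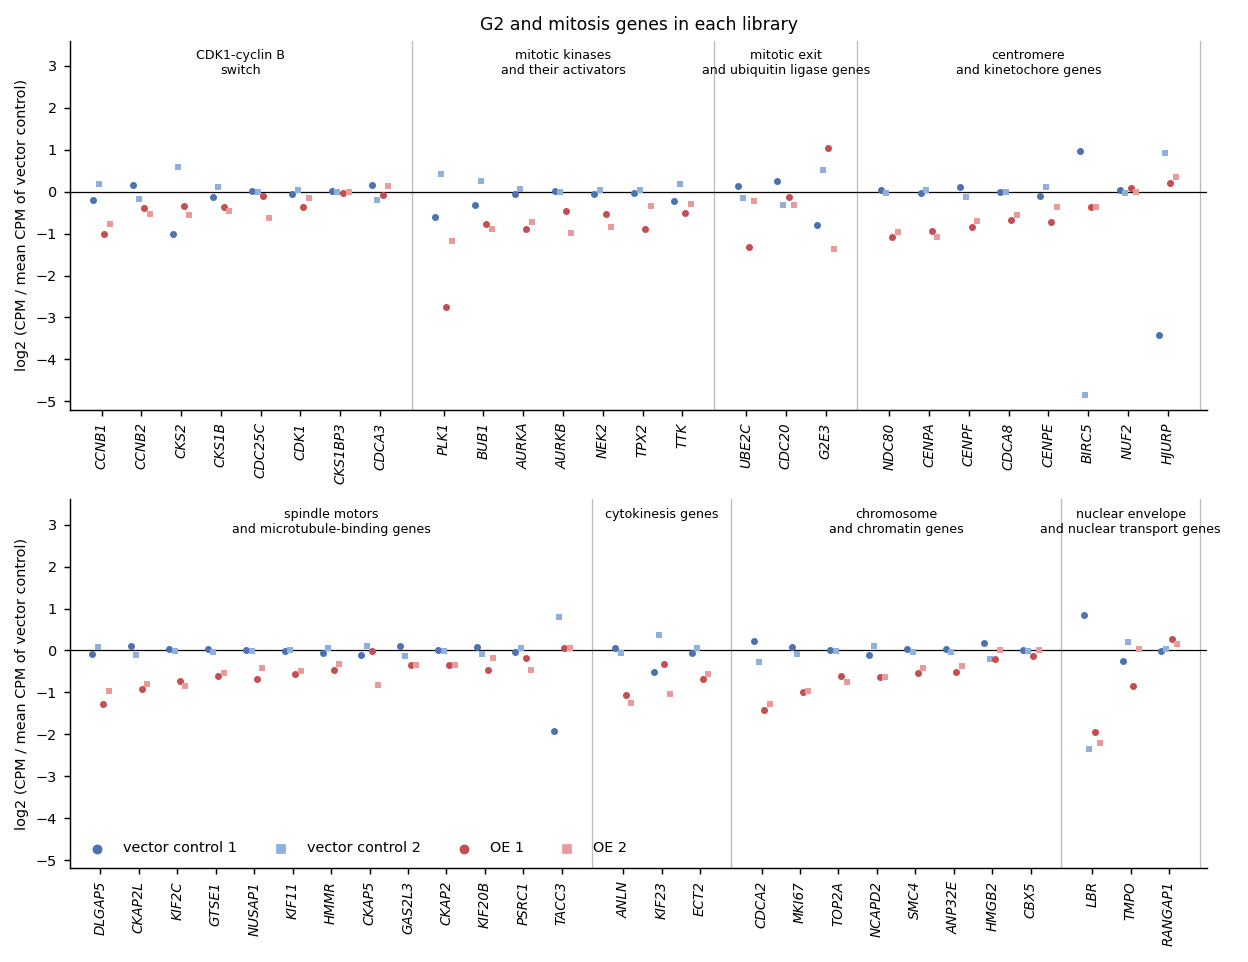
Level of each G2 and mitosis gene in each library, by role. The y axis gives log2 of the CPM over the mean CPM of the vector control libraries; blue points are the vector control libraries and red points the OE libraries (circle, library 1; square, library 2). Both red points lie below both blue points for 37 of the 53 entries and above them for *RANGAP1*.

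The kinases of mitosis and their activators lay below the vector control throughout. Both OE libraries were below both vector control libraries for all 7 genes, against 27.6% of all tested genes. Over the other roles this ran from 0 of 3 members (nuclear envelope and nuclear transport) to 11 of 13 (spindle). The median log2 fold change of the kinases was -0.71, and 4 were lower at an unadjusted p under 0.05, against 10.7% of all tested genes. *AURKA* (chr20:54944445-54967393, GRCh37) encodes Aurora A, which matures centrosomes and builds the spindle poles. It was at 17.8 and 19.5 CPM in the vector control libraries and at 10.0 and 11.4 CPM in the OE libraries, a log2 fold change of -0.80 ± 0.139 (adjusted p = 0.103). *AURKB* encodes Aurora B, the kinase of the chromosomal passenger complex, which corrects faulty attachments of chromosomes to the spindle. Its level was 9.49 and 9.41 CPM in the vector control libraries and 6.82 and 4.74 CPM in the OE libraries (log2 fold change -0.71 ± 0.232, adjusted p = 0.22). *NEK2*, a kinase that helps to split the centrosomes, was at 17.6 and 18.7 CPM against 12.5 and 10.1 CPM (log2 fold change -0.68 ± 0.162, adjusted p = 0.149). *BUB1*, a kinase of the spindle checkpoint, was at 9.75 and 14.6 CPM against 7.17 and 6.53 CPM (log2 fold change -0.83 ± 0.251, adjusted p = 0.203).

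*PLK1* (chr16:23688977-23701688, GRCh37), the Polo-like kinase that acts from mitotic entry to cytokinesis, had the lowest fold change of the kinases and the widest spread. It was at 27.7 and 56.1 CPM in the vector control libraries and at 6.18 and 18.6 CPM in the OE libraries. The groups did not overlap, yet the libraries differed 2.03-fold within the vector control and 3.02-fold within OE, and its log2 fold change of -1.75 had a standard error of 0.70 (adjusted p = 0.278). With a library left out it ran from -1.16 without vector control 2 and -1.17 without OE 1 to -2.76 without OE 2. *TPX2*, the activator of Aurora A, and *TTK*, a checkpoint kinase, had log2 fold changes of -0.59 and -0.39 with adjusted p-values of 0.257 and 0.399.

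Among the 8 entries of the switch formed by CDK1 and cyclin B, 7 had a negative log2 fold change, including the pseudogene *CKS1BP3* at -0.02. At an unadjusted p under 0.05, 2 were lower, against 10.7% of all tested genes. *CCNB1* (chr5:68462962-68474072, GRCh37), which encodes cyclin B1, was at 28.6 and 37.6 CPM in the vector control libraries and at 16.5 and 19.5 CPM in the OE libraries. The difference amounted to 45.6% on the means (log2 fold change -0.88 ± 0.193, adjusted p = 0.136). *CDK1* itself (chr10:62538089-62554610, GRCh37) had a fold change nearer to 0. It was at 25.4 and 27.1 CPM in the vector control libraries and at 20.3 and 23.8 CPM in the OE libraries, without overlap but with a log2 fold change of only -0.25 ± 0.133 (adjusted p = 0.376). *CKS1B*, a small subunit that binds CDK1, was at 38.65 and 45.45 CPM against 32.8 and 30.4 CPM (log2 fold change -0.41 ± 0.128, adjusted p = 0.208), while its pseudogene *CKS1BP3* was between 26.9 and 27.8 CPM in all 4 libraries. *CKS2*, its paralog, was at 2.32 and 7.06 CPM in the vector control libraries and at 3.71 and 3.18 CPM in the OE libraries, so that the groups overlapped. *CCNB2*, which encodes cyclin B2, and *CDC25C*, the phosphatase that activates CDK1, lay below the vector control in both OE libraries, with adjusted p-values of 0.301 and 0.502, and *CDCA3*, a cofactor of a ubiquitin ligase that acts at mitotic entry, had a log2 fold change of 0.03.

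At the centromere and kinetochore, 5 of 8 members were lower at an unadjusted p under 0.05, against 10.7% of all tested genes. *CENPA* (chr2:26987157-27023935, GRCh37), the histone H3 variant that marks centromeres, was at 19.1 and 20.1 CPM in the vector control libraries and at 10.2 and 9.33 CPM in the OE libraries (log2 fold change -1.01 ± 0.124, adjusted p = 0.0751). *NDC80*, the microtubule-binding arm of the outer kinetochore, was at 5.03 and 4.77 CPM against 2.31 and 2.52 CPM, which rests on 58 to 117 counts per library (log2 fold change -1.02 ± 0.173, adjusted p = 0.101). *CENPF*, a large kinetochore protein that accumulates in G2, was at 345.7 and 294.9 CPM in the vector control libraries and at 178.5 and 196.3 CPM in the OE libraries (log2 fold change -0.77 ± 0.113, adjusted p = 0.0878). For each of these genes the OE libraries lay well apart from the vector control libraries. *CDCA8*, the Borealin subunit of the chromosomal passenger complex, was at 46.55 and 46.43 CPM against 29.1 and 31.7 CPM (log2 fold change -0.61 ± 0.0975, adjusted p = 0.0951). *CENPE*, a kinesin that carries chromosomes to the spindle equator, was at 14.1 and 16.3 CPM against 9.21 and 11.7 CPM (log2 fold change -0.54 ± 0.187, adjusted p = 0.238). *NUF2*, the partner of NDC80 in the same complex, had overlapping groups. It was between 10.3 and 11.2 CPM in all 4 libraries, and its log2 fold change was 0.03 (standard error 0.129).

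*BIRC5* and *HJURP* could not be read at this replication. *BIRC5*, which encodes Survivin, which acts in the passenger complex with Aurora B and Borealin, had 2203 and 39 counts with the vector control and 936 and 1076 counts with OE. *HJURP*, the chaperone that loads CENPA, had 41 and 844 counts with the vector control against 542 and 693 counts with OE. In each case 1 vector control library stood apart, vector control 2 for *BIRC5* and vector control 1 for *HJURP*, and the other vector control library lay above both OE libraries. The standard errors of their log2 fold changes, 1.71 and 1.36, were larger than the fold changes themselves (-0.37 and 0.27).

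The spindle motors and microtubule-binding proteins were the largest role, with 13 members. Of these, 12 had a negative log2 fold change. Both OE libraries were below both vector control libraries for 11, against 27.6% of all tested genes. At an unadjusted p under 0.05, 8 were lower, against 10.7% of all tested genes. *DLGAP5*, which stabilizes the microtubules that attach to kinetochores, was at 13.4 and 14.9 CPM in the vector control libraries and at 5.86 and 7.19 CPM in the OE libraries (log2 fold change -1.12 ± 0.174, adjusted p = 0.0933). *CKAP2L*, a spindle protein, was at 74.2 and 63.1 CPM against 36.3 and 39.4 CPM (log2 fold change -0.86 ± 0.128, adjusted p = 0.0893). *KIF2C*, a kinesin that takes microtubules apart at the kinetochore, was at 14.7 and 14.3 CPM against 8.69 and 8.05 CPM (log2 fold change -0.79 ± 0.127, adjusted p = 0.0954). In all 3 genes the lowest vector control library was clearly above the highest OE library. *KIF11*, the motor that pushes the spindle poles apart, was at 48.7 and 49.5 CPM in the vector control libraries and at 33.5 and 35.1 CPM in the OE libraries (log2 fold change -0.52 ± 0.0886, adjusted p = 0.102).

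The other spindle members included 4 more genes with an unadjusted p under 0.05. *GTSE1*, a microtubule-binding protein expressed in G2, was at 28.9 and 27.1 CPM against 18.2 and 19.3 CPM (log2 fold change -0.575 ± 0.108, adjusted p = 0.113). *NUSAP1*, which bundles spindle microtubules, was at 29.5 and 28.98 CPM against 18.3 and 21.8 CPM (log2 fold change -0.55 ± 0.132, adjusted p = 0.151). *HMMR*, a spindle protein also known as a hyaluronan receptor, was at 21.0 and 22.6 CPM against 15.7 and 17.5 CPM (log2 fold change -0.39 ± 0.123, adjusted p = 0.209). *CKAP2*, a microtubule-associated protein, had close replicates in both conditions. It was at 57.4 and 56.6 CPM in the vector control libraries and at 45.2 and 44.7 CPM in the OE libraries (log2 fold change -0.34 ± 0.0844, adjusted p = 0.154), but with its leading transcript only the log2 fold change was 1.01, at an unadjusted p under 0.05. *KIF20B*, *PSRC1* and *GAS2L3* had log2 fold changes of -0.32, -0.32 and -0.35 with adjusted p-values from 0.303 to 0.355. *CKAP5*, a microtubule polymerase, overlapped between the groups, and *TACC3*, its partner at the spindle, had 209 and 1378 counts with the vector control against 883 and 1018 counts with OE, so that vector control 1 stood below and vector control 2 above the rest.

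Cytokinesis genes included the member with the second smallest p-value. *ANLN* (chr7:36429430-36493400, GRCh37) encodes anillin, a scaffold of the contractile ring. It was at 102.3 and 94.2 CPM in the vector control libraries and at 47.0 and 41.3 CPM in the OE libraries (log2 fold change -1.15 ± 0.115, adjusted p = 0.0631), 55.05% lower on the means. *ECT2*, the exchange factor that activates RhoA at the cleavage site, was at 36.6 and 39.4 CPM against 23.8 and 25.7 CPM (log2 fold change -0.62 ± 0.107, adjusted p = 0.103). *KIF23*, a motor of the central spindle, was at 13.6 and 25.1 CPM against 15.4 and 9.51 CPM, and the groups overlapped.

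Of the chromosome and chromatin genes, all 8 had a negative log2 fold change. At an unadjusted p under 0.05, 6 were lower, against 10.7% of all tested genes. *MKI67* (chr10:129894923-129924687, GRCh37) encodes Ki-67, the standard proliferation antigen, which coats mitotic chromosomes. It was at 197.5 and 176.0 CPM in the vector control libraries and at 93.7 and 94.8 CPM in the OE libraries, 49.5% lower on the means (log2 fold change -0.99 ± 0.0906, adjusted p = 0.0615). *TOP2A* (chr17:38544777-38574148, GRCh37), the topoisomerase that untangles sister chromatids, was at 84.7 and 82.7 CPM against 54.7 and 49.9 CPM (log2 fold change -0.68 ± 0.095, adjusted p = 0.0831). *CDCA2*, which brings protein phosphatase 1 to mitotic chromatin, had the lowest fold change in this role. Its level was 15.5 and 11.02 CPM in the vector control libraries and 4.94 and 5.46 CPM in the OE libraries (log2 fold change -1.35 ± 0.228, adjusted p = 0.101).

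The condensin subunits *NCAPD2* and *SMC4*, which compact mitotic chromosomes, lay below the vector control in both OE libraries. *NCAPD2* was at 55.8 and 64.7 CPM against 38.8 and 38.5 CPM (log2 fold change -0.64 ± 0.115, adjusted p = 0.108), and *SMC4* at 62.3 and 58.7 CPM against 41.8 and 45.3 CPM (log2 fold change -0.48 ± 0.0992, adjusted p = 0.128). With its leading transcript only, *SMC4* had a log2 fold change of -0.21 and no longer an unadjusted p under 0.05. *ANP32E*, a chaperone that removes the histone variant H2A.Z, was at 259.7 and 250.3 CPM in the vector control libraries and at 178.9 and 198.1 CPM in the OE libraries (log2 fold change -0.44 ± 0.0809, adjusted p = 0.113). In contrast to these, *CBX5*, the heterochromatin protein HP1 alpha, was at 365.3 and 356.3 CPM against 331.5 and 363.7 CPM, with overlapping groups and a log2 fold change of -0.05 (standard error 0.071). *HMGB2*, a chromatin protein, overlapped as well (log2 fold change -0.10).

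The remaining roles held no member with an unadjusted p under 0.05. Among the 3 genes of mitotic exit and ubiquitin ligases, *UBE2C*, the ubiquitin-conjugating enzyme of the anaphase-promoting complex, was at 9.28 and 7.70 CPM in the vector control libraries and at 3.39 and 7.26 CPM in the OE libraries, so that only OE 1 stood clearly below. *CDC20*, its activator at anaphase, was at 13.3 and 8.94 CPM against 10.2 and 8.88 CPM. *G2E3*, a ubiquitin ligase expressed in G2, was at 6.74 and 16.6 CPM against 23.9 and 4.49 CPM, and both its highest and its lowest value came from OE libraries. At the nuclear envelope, *RANGAP1*, the GTPase-activating protein of Ran, was at 93.8 and 96.9 CPM in the vector control libraries and at 114.9 and 105.9 CPM in the OE libraries (log2 fold change 0.21 ± 0.0858, adjusted p = 0.283). *TMPO*, which encodes lamina-associated polypeptide 2, was at 90.9 and 124.0 CPM against 59.7 and 109.5 CPM, and the groups overlapped. *LBR*, the lamin B receptor, had 1472 and 162 counts with the vector control and 229 and 218 counts with OE, so its log2 fold change of -2.07 (standard error 1.13) came from vector control 1 alone.

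With each library left out in turn, 18 of the 27 members at an unadjusted p under 0.05 stayed under it every time. The other 9 did not. *CCNB1* stayed under it in 3 of the 4 fits, *AURKB*, *BUB1*, *CENPE*, *CKS1B*, *NEK2* and *NUSAP1* in 1, and *CKAP2* and *HMMR* in 0. The direction of these 27 was negative in every such fit. With the leading transcript only, *CKS1B*, *AURKB*, *BUB1*, *CENPE*, *NUSAP1* and *SMC4* had an unadjusted p over 0.05 and *CKAP2* turned. Without vector control 1, *HJURP* and *TACC3* turned to log2 fold changes of -0.66 and -0.74, *LBR* to 0.27 and *BIRC5* to 4.48.

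The counts were deposited per transcript, and this bore on several members. In 13 of the 53 entries, the transcript with the most counts was not the same in all 4 libraries. All 591 counts of *CDK1* in vector control 1 were on ENST00000448257.2, which had 0 counts in the other libraries, where ENST00000395284.3 led with 490, 368 and 536 counts. *CDC20* was on ENST00000372462.1 in vector control 1 and OE 2 (293 and 257 counts) and on ENST00000310955.6 in vector control 2 and OE 1 (204 and 250 counts). *HMGB2* was on ENST00000296503.5 in vector control 1 and OE 2 (1529 and 2261 counts) and on ENST00000511316.1 in vector control 2 and OE 1 (1582 and 1684 counts). For *CDK1* the sums over transcripts were much closer than the single transcripts, with 591 and 638 counts in the vector control libraries. Summing did not bring the libraries together in every case. In 4 of the 13 entries the vector control sums stayed over 2-fold apart. These sums were 41 and 844 counts for *HJURP*, 1472 and 162 for *LBR*, 209 and 1378 for *TACC3*, and 157 and 389 for *G2E3*. *NUSAP1* was on ENST00000260359.6 in vector control 1 and OE 2 (684 and 629 counts) and on ENST00000450318.1 in vector control 2 and OE 1 (644 and 460 counts). *NUF2* and *PSRC1* differed in OE 2 only, in which ENST00000271452.3 of *NUF2* held 302 counts and ENST00000438534.2 of *PSRC1* held 288 counts, after 0 counts of either in the other libraries. *GAS2L3* and *HJURP* differed in vector control 1 only, with 213 counts on ENST00000547754.1 and 35 counts on ENST00000433484.2. *CKAP2* was the only one of these members whose leading transcript followed the condition. Its ENST00000258607.5 held 640 and 622 counts with the vector control and 0 counts in both OE libraries, where ENST00000378037.5 led with 922 and 1060 counts after 388 and 464 counts in the vector control.

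**Figure D3:**
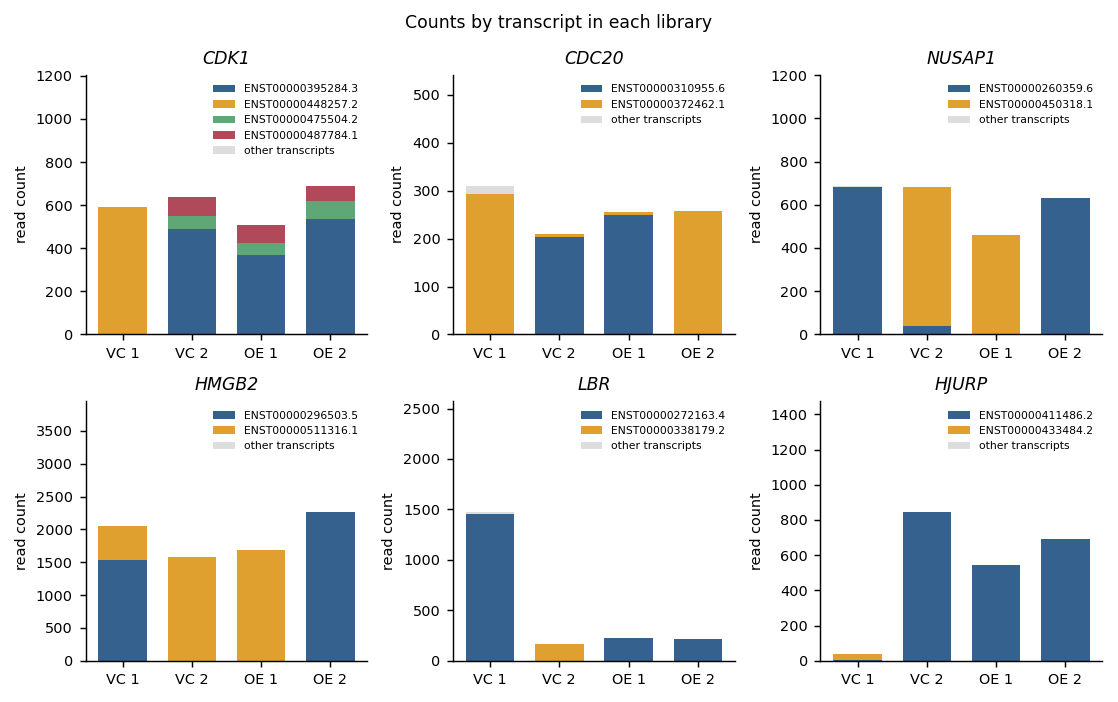
Counts by transcript of 6 G2 and mitosis genes in each library (VC, vector control). Each bar is 1 library, its height the read count of the gene on a linear axis and its colours the transcripts; the leading transcript differs between libraries of the same condition, as for *CDK1* with 591 counts on ENST00000448257.2 in vector control 1 and 0 in the others.

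*LBR* had 1455 counts on ENST00000272163.4 in vector control 1 and 162 counts on ENST00000338179.2 in vector control 2. *TACC3* had 43 counts on ENST00000313288.4 in vector control 1, where ENST00000485989.2 led with 94 counts, and from 856 to 1342 counts in the others. *G2E3* had 3 leading transcripts among the 4 libraries, ENST00000553504.1 in vector control 1 and OE 2 (134 and 107 counts), ENST00000549159.1 in vector control 2 (348 counts) and ENST00000206595.6 in OE 1 (577 counts). *KIF23* was led by ENST00000537891.1 (154 counts), ENST00000559279.1 (445 counts), ENST00000260363.4 (367 counts) and ENST00000558585.1 (100 counts) in vector control 1 and 2 and OE 1 and 2. Of the 40 members with the same leading transcript throughout, 38 had a negative log2 fold change and 25 an unadjusted p under 0.05 (median -0.60). Of the 13 others, 9 were negative and 2 had such a p (median -0.25), near the 10.7% of all tested genes that were lower at it. The median fold between the vector control libraries was 1.10 in the first set and 1.31 in the second, and 3 and 4 members, respectively, differed by more than 2-fold. Between the OE libraries the medians were 1.10 and 1.17, and 2 and 1 members differed by more than 2-fold.

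Several members have processed pseudogenes, copies of a spliced mRNA elsewhere in the genome, to which their reads can be assigned. The pseudogenes were examined after the members' values had been seen. For 19 members the table held 33 pseudogenes, 31 of them annotated as processed, and for 11 members these had at least 20 counts. *CDC20P1* (chr9:89626567-89628066, GRCh37), which is 96.3% identical to *CDC20* over its aligned length, had 2926 and 2976 counts with the vector control and 2148 and 2164 counts with OE, beside the 310, 210, 256 and 257 counts of *CDC20*. Its log2 fold change was -0.65 (adjusted p = 0.0933), and that of *CDC20* and its copy together was -0.61 in place of -0.22 for *CDC20* alone. *AURKAP1* (94.9% identical to *AURKA*) had 808 and 789 counts against 347 and 421 counts, a log2 fold change of -1.27 (adjusted p = 0.0521). Together with its copies, *AURKA* had a log2 fold change of -1.09 (adjusted p = 0.0614). The copies of both genes thus lay in the same direction as the genes and held most of the joint counts.

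The same holds in part for other members. *NCAPD2P1* had 861 and 973 counts against 439 and 634 counts (log2 fold change -0.99), and *NCAPD2* with its copy had -0.77. *CCNB2P1* had 413 and 530 counts against 394 and 376 counts, beside *CCNB2* with 178, 141, 130 and 137 counts, and both together had a log2 fold change of -0.48 (adjusted p = 0.198). The copies of *CKS1B* that took the most reads did not share its lower level. *CKS1BP7* was at 32.5 and 34.8 CPM with the vector control and at 35.9 and 31.9 CPM with OE (log2 fold change 0.011 ± 0.114), and *CKS1BP3*, which is 99.6% identical to *CKS1B*, had a log2 fold change of -0.021 ± 0.0937. With all 7 copies added, the log2 fold change of *CKS1B* was -0.17 (adjusted p = 0.375), and it no longer had an unadjusted p under 0.05. *CDC20* and *CCNB2* came under this limit with their copies. *UBE2C* went from a log2 fold change of -0.67 to -0.28 with its 5 copies, and *G2E3* from 0.28 to -0.12 with *G2E3P1*. How the reads were divided between genes and copies is not given in the sources used here, so the values of these 7 members are uncertain where they are given for the gene alone.

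**Figure D4:**
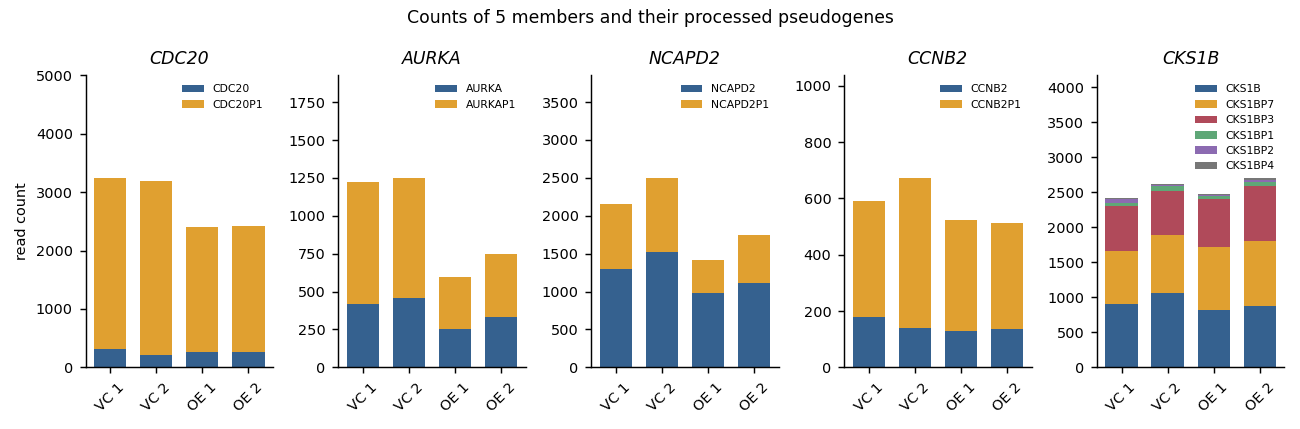
Read counts of 5 G2 and mitosis genes (bottom of each bar) and of their processed pseudogenes with at least 20 counts, in each library (VC, vector control), on linear axes. *CDC20P1* and *AURKAP1* hold more counts than *CDC20* and *AURKA* in every library and are lower in both OE libraries, while *CKS1BP7* and *CKS1BP3* have log2 fold changes of 0.011 and -0.021.

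Exons of 19 members overlap those of another gene, and for 11 of them that gene had at least 10% of the member's counts. The library kit named in the labels does not mark strand, so reads from overlapping exons on opposite strands cannot be told apart. The lengths given here are the longest stretch shared by any pair of exons. *ANLN* overlaps *KIAA0895* over 78 bases, and the latter had 533 and 612 counts with the vector control and 668 and 776 counts with OE. *CENPA* overlaps *SLC35F6* on the same strand over 138 bases, and the latter had 3036, 3165, 145 and 3654 counts. *SMC4* overlaps *TRIM59* over 1298 bases, and *TRIM59* had 2684 and 224 counts with the vector control against 162 and 1680 counts with OE. *NUSAP1* overlaps *OIP5-AS1*, with 3819, 86, 4744 and 6136 counts. *CDC25C*, with 72 to 91 counts, overlaps *FAM53C* over 293 bases, which had 513, 267, 2313 and 2642 counts. The other members past this limit were *CDCA3*, *GAS2L3*, *KIF23*, *NCAPD2*, *NUF2* and *TACC3*. Whether reads from overlapping genes have a part in the members' values was not tested.

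The remaining genes of mitosis were taken from a list of 112 genes that are not members, of which 110 entries were tested. Of these, 88 had a negative log2 fold change, 36 were lower at an unadjusted p under 0.05 and 1 was higher (against 10.7% and 10.1% of all tested genes), and the median was -0.26. By DESeq2, 23 were lower and 1 was higher at the study's thresholds (against 4.42% and 4.35% of all tested genes). The subgroup of other spindle and cytokinesis genes had the lowest median, -0.60 over 21 genes, of which 12 were lower at an unadjusted p under 0.05. The spindle checkpoint genes and those of the anaphase-promoting complex and of securin and separase had medians of -0.13 and -0.12, with 1 of 8 and 4 of 18 at such a p, the former near the share over all tested genes. *KIF14*, a kinesin of the midbody, had 1252 and 1262 counts with the vector control and 591 and 684 counts with OE (log2 fold change -1.19 ± 0.0868). By edgeR its adjusted p of 0.048 was under 0.05 but did not pass the study's threshold, which it passed by DESeq2 (adjusted p = 1.43e-37). *FAM83D*, a spindle protein, and *CEP55*, a scaffold of abscission, had log2 fold changes of -1.27 and -0.98, and *FBXO5*, the inhibitor of the anaphase-promoting complex in interphase, and *CCNA2*, cyclin A2, had -0.90 and -0.83 (adjusted p by edgeR from 0.0629 to 0.0743).

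Of 13 regulators of these genes, the DREAM, MuvB and FOXM1 group, 2 were lower and 1 was higher at an unadjusted p under 0.05, near the 10.7% and 10.1% of all tested genes. *FOXM1*, the transcription factor of the G2 program, which is named here after its values were seen, was at 167.0 and 180.9 CPM in the vector control libraries and at 120.9 and 121.1 CPM in the OE libraries (log2 fold change -0.52, adjusted p = 0.0893), but with the leading transcript only its log2 fold change was 0.23 (adjusted p = 0.941). *E2F4*, a repressor subunit of DREAM, was higher. It had 1549 and 1611 counts with the vector control and 4341 and 4703 counts with OE (log2 fold change 1.31 ± 0.0797). By edgeR its adjusted p of 0.0376 was under 0.05 but did not pass the study's threshold, which it passed by DESeq2 (adjusted p = 5.36e-64). Most of the added counts were on ENST00000379378.3, which had 297, 0, 3501 and 4684 counts, while ENST00000567228.1 had 545, 626, 14 and 19 counts and ENST00000567007.1 had 707, 985, 826 and 0 counts. Over the 16 alternatives run for *E2F4* and *KIF14*, the adjusted p was under 0.05 in 10 and 9, and it reached 0.535 and 0.296. Both lost this call with any library left out (adjusted p from 0.0779 without OE 2 to 0.123 without vector control 1 for *E2F4*, and from 0.132 without OE 2 to 0.148 without vector control 1 for *KIF14*) and with a replicate block (0.296 for both).

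Of 42 S phase genes, all tested, 37 had a negative log2 fold change, 14 were lower and 0 were higher at an unadjusted p under 0.05 by edgeR (against 10.7% and 10.1% of all tested genes), and the median was -0.37. Without vector control 2, 9 were lower at such a p. By DESeq2, 9 were lower and 0 higher at the study's thresholds (against 4.42% and 4.35% of all tested genes). *UHRF1*, which maintains DNA methylation after replication, had 1415 and 1334 counts with the vector control against 891 and 929 counts with OE (log2 fold change -0.80). *RRM1*, the large subunit of ribonucleotide reductase, had 1246 and 1186 counts against 816 and 852 counts (log2 fold change -0.75). *EXO1*, a DNA exonuclease, *CHAF1B*, a subunit of the histone chaperone CAF-1, and *CLSPN*, a replication checkpoint adaptor, had log2 fold changes of -0.77, -0.91 and -0.68. The adjusted p-values of these 5 lay from 0.0792 to 0.102. The medians of the 3 lists were thus -0.52, -0.26 and -0.37, and the difference between the lists was not tested.

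**Figure D5:**
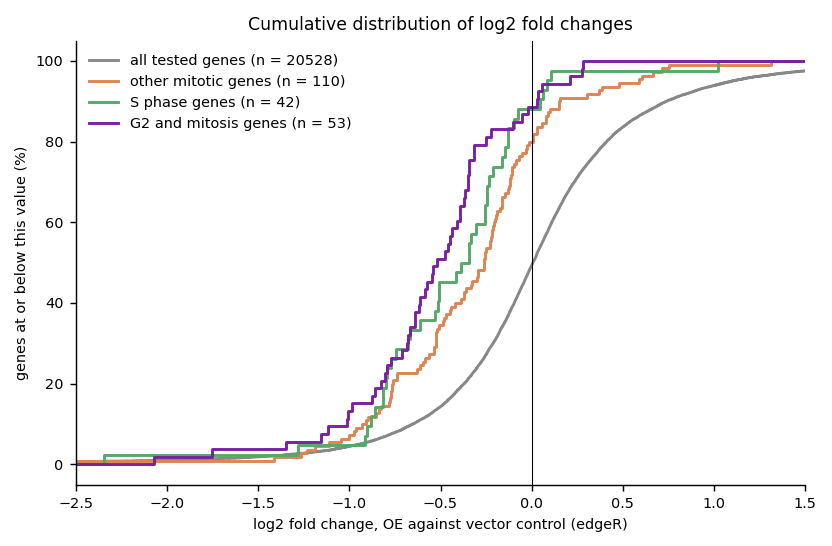
Cumulative distribution of edgeR's log2 fold changes (OE against vector control, x axis) as the percentage of genes at or below each value (y axis). The curve of the 53 G2 and mitosis genes (median -0.52) lies left of that of all 20528 tested genes (median 0.01), with the S phase genes (median -0.37) and other mitotic genes (median -0.26) between them over most of the range.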

How the data were processed

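Whole-number read counts per transcript, as deposited by the authors without normalization, were summed over the transcripts of each gene ID. The authors trimmed the reads and mapped them to hg19, and the submitters' processing notes name Bowtie2 2.0.4, Picard 2.21.6, StringTie 2.1.6 and DESeq2. The counting tool, its annotation release and its use of strand are not given in the sources used here. After filterByExpr (20528 genes) and TMM normalization, edgeR 4.0.16 (R 4.3.3) was used for the quasi-likelihood test with Benjamini-Hochberg adjustment, 2 libraries against 2, without covariates. Standard errors were computed as the absolute log2 fold change over the square root of F. The script was tested on simulated data with 200 changed genes.

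The members and gene lists were chosen with earlier results of these data known. Values were given per library for 7 core regulators, the 6 members with the highest mean CPM, members with an unadjusted p under 0.05 or with replicates over 2-fold apart, and members whose leading transcript differed, among libraries of at least 20 counts. Of the other lists, at most 5 genes per direction with the smallest p and a mean of at least 4 CPM were named. *PECAM1*, the remaining endothelial marker, was not matched by symbol. CPM are not divided by length, so that expression levels were not compared between genes, and counts of a gene and its pseudogenes were set side by side only as shares of their joint reads. Alternatives were DESeq2 1.42.0, limma-voom (limma 3.58.1), RLE and upper-quartile normalization, other filters, a replicate block, leaving out each library or the mitochondrial genes, and the transcript with the highest mean count. Added after the values were seen were robust and non-legacy edgeR, pseudogene counts, and subsets of members. Gene positions, exons and pseudogene alignments came from the lifted GENCODE annotation (GRCh37), and promoters from RefSeq (GRCh38.p14).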

Additional observations from a re-analysis of the deposited data

How the results depend on the processing

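The count of members lower at an unadjusted p under 0.05, 27 as reported, ran from 20 (leading transcript only) to 29 (DESeq2), and with a library left out from 21 to 25. Members past the study's thresholds were 0 in every fit but DESeq2 (19). Members higher at an unadjusted p under 0.05 were 1 by DESeq2, with the leading transcript only and with upper-quartile normalization, and 0 to 2 with a library left out. Other mitotic genes higher at such a p were 2 by DESeq2, and 1 to 5 with a library left out. S phase genes lower at such a p were 9 to 15 with a library left out (9 without vector control replicate 2). Median log2 fold changes with upper-quartile normalization were -0.48 (members), -0.22 (other mitotic genes) and -0.33 (S phase genes). With a library left out they ran from -0.55 to -0.51, from -0.29 to -0.26 and from -0.51 to -0.32, respectively. The members' median was -0.60 over those with the same leading transcript and -0.54 over those within 2-fold between replicates, and the S phase median with the leading transcript only was -0.48. The summed level gave a log2 difference of -0.47, and -0.41 with plain library totals.

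The deviations of same-numbered libraries had a correlation of -0.03 over the members, which cannot show whether the libraries were prepared in pairs. With a replicate block, 24 members were lower at an unadjusted p under 0.05 (22 of the 27), 2 other mitotic genes were higher, and *G2E3* and *BIRC5* turned to log2 fold changes of -0.019 and 1.47. Directions also turned for *CDK1* (0.67), *NUF2* (-0.90), *CKAP2* (1.01), *GAS2L3* (0.70), *KIF23* (0.47) and *FOXM1* (0.23) with the leading transcript only, for *G2E3* (-0.12) with pseudogene counts added, for *CKS1BP3* (0.018) with upper-quartile normalization, and for *G2E3* (-0.090) and *BIRC5* (1.57) in limma-voom. Leaving out a library turned the direction of 12 of the 53 members. *G2E3* ran from -1.37 (without OE replicate 1, and -0.22 without vector control replicate 1) to 1.07, *NUF2* from -0.018 (without OE replicate 1, and -0.014 without vector control replicate 2) to 0.079, and *CDCA3* from -0.14 (without vector control replicate 2, and -0.088 without OE replicate 2) to 0.22. Without OE replicate 1, *CBX5* (lowest -0.12) reached 0.012 and *TMPO* (lowest -0.85) 0.027. Without vector control replicate 1, *HJURP* (highest 3.68) was at -0.66, *TACC3* (highest 1.97) at -0.74, *BIRC5* (lowest -1.35) at 4.48, *LBR* (lowest -2.93) at 0.27, *CDC20* (lowest -0.48) at 0.092 and *HMGB2* (lowest -0.29) at 0.11, with 0.0057 for *HMGB2* without OE replicate 1. *CKS2* ran from -1.04 to 0.56 (without vector control replicate 2). The cause was not tested. Where 1 library of a condition remains, it is assumed to vary like the other condition.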
